A study of Homo sapiens with 32 samples.

Results

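The immediate early genes of the AP-1 and EGR families were followed here in 4 human endometrial cancer cell lines as 10 named genes: FOS, FOSL1, FOSL2, JUN, JUNB, JUND, EGR1, ATF3, IER2 and IER3. They were taken by symbol from a table of 35238 genes, and each symbol matched 1 row. The lines were Ishikawa, labelled CTNNB1-wildtype, and Ishikawa-S33Y, SNGM and HEC265, each labelled CTNNB1-mutated. Every line was kept for 24 h on vehicle (0.1% DMSO), on the taxane paclitaxel, on SM08502, an inhibitor of the CDC-like kinases (CLKs) that phosphorylate splicing factors, or on both agents at the same doses as alone. The labels set each dose to the line's own IC50. Paclitaxel was given at 11 nM to Ishikawa, 6 nM to Ishikawa-S33Y, 11.7 nM to SNGM and 5.6 nM to HEC265, and SM08502 at 80, 85, 350.7 and 149 nM in the same order, so that dose and line cannot be told apart. Ishikawa-S33Y carries a mutant form of CTNNB1, the gene of β-catenin, on the Ishikawa background; whether it is 1 clone is not given in the sources used here. Each of the 16 groups had 2 RNA-seq libraries from cells plated in duplicate, and p-values therefore measure the spread between these libraries, which may be technical.

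Immediate early genes are transcribed within minutes of a growth factor, cytokine or stress signal without new protein synthesis, and their transcripts carry short half-lives. FOS, FOSL1 and FOSL2 encode bZIP proteins that pair with JUN, JUNB or JUND to form the AP-1 transcription factor, and JUN proteins also pair among themselves. ERK signalling drives FOS and EGR1 through serum response factor (SRF) and its TCF partners, and raises FOSL1 over a longer time, while the JNK kinases phosphorylate JUN. EGR1 encodes a zinc-finger factor that binds GC-rich sites, ATF3 a bZIP repressor of the ATF/CREB family induced by many stresses, IER2 a nuclear protein of the early growth response, and IER3 (IEX-1) a stress-induced regulator of cell survival and ERK signalling. A 24 h exposure captures the sustained level of these transcripts and not the early peak.

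The 250 bases before the start site of FOS, EGR1 and JUND are printed below, 5′ to 3′ on the gene's own strand, because each holds a different element of those searched; they are from RefSeq, GRCh38.p14. FOS (chr14:75278578-75278827, + strand) has a TATA box, in capitals. EGR1 (chr5:138465229-138465478, + strand) has, in capitals, 1 GC-rich EGR site and then 2 CArG boxes, the sequence bound by SRF. JUND (chr19:18281623-18281872, − strand) has, in capitals, a CRE-like octamer and then a CCAAT box.
FOS: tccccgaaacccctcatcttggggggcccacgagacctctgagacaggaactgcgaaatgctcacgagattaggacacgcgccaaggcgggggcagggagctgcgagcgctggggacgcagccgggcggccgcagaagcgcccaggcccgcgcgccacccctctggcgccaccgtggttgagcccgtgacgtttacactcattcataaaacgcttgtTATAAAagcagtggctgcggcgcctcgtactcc
EGR1: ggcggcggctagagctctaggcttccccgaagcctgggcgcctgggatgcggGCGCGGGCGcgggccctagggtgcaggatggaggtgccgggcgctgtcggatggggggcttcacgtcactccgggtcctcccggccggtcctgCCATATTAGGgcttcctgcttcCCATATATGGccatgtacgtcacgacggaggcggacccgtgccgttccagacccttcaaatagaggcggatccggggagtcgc
JUND: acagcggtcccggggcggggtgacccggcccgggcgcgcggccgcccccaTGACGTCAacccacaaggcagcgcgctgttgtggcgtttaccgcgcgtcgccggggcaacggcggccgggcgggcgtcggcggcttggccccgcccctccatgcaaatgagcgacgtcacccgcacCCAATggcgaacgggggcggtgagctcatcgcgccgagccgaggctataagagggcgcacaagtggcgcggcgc
Both strands of 9 such windows, for 8 of the members, were searched. ATF3 has a pair of start sites, and FOSL1 and IER3 were not matched. The EGR site GCGNGGGCG was found once, in EGR1, 198 to 190 bases before its start, and stands in 8.415% of 35116 promoter windows of this length. The CArG box was found only in EGR1 among these windows, 105 to 96 and 83 to 74 bases before the start, against 1.159% of all promoters. Sites more than 250 bases before a start, in FOS or any other member, were not searched. TGACGTCA was found in JUND, 200 to 193 bases before the start (1.646% of all), and TATAAA in FOS, 33 to 28 bases before the start, in JUNB and at 1 start of ATF3 (10.716% of all). CCAAT stood in JUN, JUNB, JUND and the other start of ATF3 (32.008% of all). The AP-1 site TGACTCA was in none of the 9 windows (4.203% of all). The motifs do not overlap in the windows printed, and a match is a description of letters only.

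The deposited values were log10(CPM + 1), where CPM is a gene's reads for each 1000000 reads (1 M) of its library. Depth was 13.0 to 34.1 M reads in 30 libraries and 20.6 M in the median of all 32. Replicate 2 of the combination was far shallower in Ishikawa-S33Y (2.99 M) and SNGM (1.61 M), where 3 reads are worth 1.00 and 1.87 CPM. Replicates lay furthest apart in Ishikawa (a root mean square of 0.104 to 0.594 in log2, over 6083 expressed genes) and closest in HEC265 (0.0699 to 0.120). Long and short transcripts were set against each other in a length score (33 long-transcript genes less 75 ribosomal protein genes, mean log2), which ran from −3.11 to −1.55 in Ishikawa and from −0.66 to 0.01 in SNGM; 350 ng of RNA entered the Ishikawa libraries and 500 ng the others. All 6 epithelial markers were detected in every library, with a summed level of 948 to 3484 CPM. Of 8 markers of other cell types, CD3E and PDGFRB stayed under 1 CPM throughout, while COL1A1 was at 707 to 1158 CPM in Ishikawa-S33Y, 27.1 to 189 in Ishikawa and at most 6.33 elsewhere. PTPRC, PECAM1, VWF, DCN and COL1A2 were at most 8.34 CPM in any library (VWF in Ishikawa-S33Y). In Ishikawa-S33Y, COL1A2 was at 0.72 to 2.67 CPM and DCN at 0.33 to 1.03. Alternative fits took the length score as a covariate or left out the 2 shallow libraries. The part of the other differences in the results was not tested.

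RefSeq (GRCh38.p14) places FOS at chr14:75278828-75282230, FOSL1 at chr11:65892049-65900545, FOSL2 at chr2:28392858-28417317. It places JUN at chr1:58780791-58784047, JUNB at chr19:12791486-12793315 and JUND at chr19:18279694-18281622. The others lie with EGR1 at chr5:138465479-138469303, ATF3 at chr1:212565407-212620777, IER2 at chr19:13150411-13154911 and IER3 at chr6:30743199-30744547. All 10 members passed the filter on low values (above 1 CPM in at least 2 libraries), which left 17011 genes. Differences are on the log2(CPM + 1) scale, with a standard error (SE) from limma fitted to all 32 libraries, and a gene is called at a Benjamini-Hochberg adjusted p under 0.05 over all genes tested. FOSL2, JUNB and IER3 overlap another annotated gene (FOSL2-AS1, HOOK2 and IER3-AS1); the strand setting of the counting is not given in the sources used here, so their values are uncertain to that extent. In bulk RNA, fewer cells that express a gene and less of its RNA in each cell cannot be told apart.

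**Figure D1:**
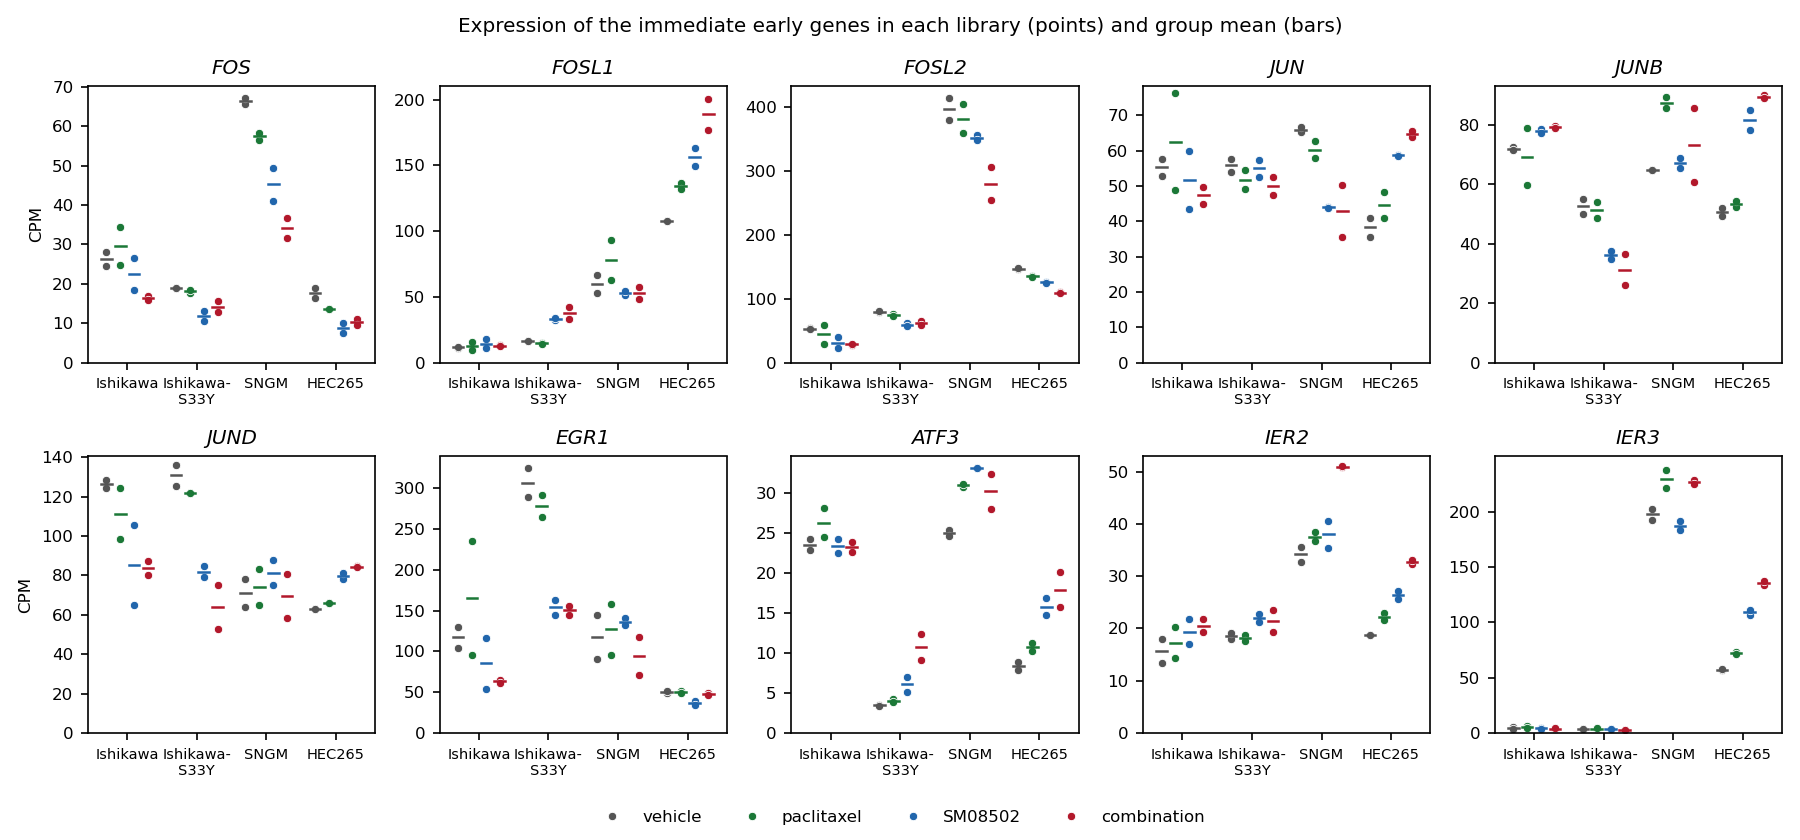
CPM of each of the 10 genes (vertical axis, linear, 1 panel a gene) in the 32 libraries, grouped by line and treatment; points are libraries and bars are means of 2. IER3 and FOSL1 separate the lines, while FOS in HEC265 goes from 16.3 and 19.0 CPM on vehicle to 7.39 and 9.91 on SM08502.

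On vehicle, all 10 genes differed in level among the 4 lines by limma's moderated F test, as did 86.9% of all genes tested, so that a difference between lines is the rule and not a mark of these genes. The widest span was that of IER3, at 193 and 202 CPM in SNGM and 56.8 and 57.4 in HEC265, against 5.12 and 3.99 in Ishikawa and 3.70 and 4.07 in Ishikawa-S33Y. SNGM stood 5.17 ± 0.12 (log2 difference, SE) above Ishikawa (adjusted p = 3.45e-19) and HEC265 stood 3.39 above it (adjusted p = 3.75e-16). Ishikawa-S33Y and Ishikawa did not differ detectably in IER3 (−0.18). FOSL1 rose in another order, from 11.4 and 11.7 CPM in Ishikawa and 16.3 and 16.1 in Ishikawa-S33Y to 52.7 and 66.6 in SNGM and 108 in both libraries of HEC265. Its level in HEC265 was 3.12 above Ishikawa (adjusted p = 1.41e-11) and 0.85 above SNGM (adjusted p = 0.00131), while Ishikawa-S33Y and Ishikawa, next to each other in that order, were not told apart (0.46).

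FOSL2 and FOS were highest in SNGM. FOSL2 was at 378 and 413 CPM in SNGM, 146 and 148 in HEC265, 78.4 and 80.2 in Ishikawa-S33Y and 53.3 and 51.8 in Ishikawa, with each neighbour in this order called different from the next. FOS was at 65.5 and 67.2 CPM in SNGM, 24.6 and 28.1 in Ishikawa, 18.9 in both libraries of Ishikawa-S33Y and 19.0 and 16.3 in HEC265; the last 2 lines did not differ beyond their spread (−0.10). IER2, at 32.7 and 35.7 CPM, was also highest in SNGM, and its other 3 lines, at 13.4 to 19.2 CPM, were not told apart. With the length score as a covariate, 4 calls of FOS, FOSL2 and IER2 against Ishikawa were lost. SNGM stood above it by 0.54 in FOS (adjusted p = 0.108) and by 0.58 in IER2 (adjusted p = 0.0636). HEC265 stood above it by 0.33 in FOSL2 (adjusted p = 0.147), and Ishikawa-S33Y turned to −0.12 in FOSL2. On vehicle both Ishikawa libraries scored lower (−2.75 and −2.35) than every library of the other lines, so these fits cannot tell score from line.

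The JUN genes had the narrowest spans. JUN lay between 35.5 and 66.6 CPM in the 8 vehicle libraries, with HEC265 (35.5 and 41.0) below each of the other lines and no call among Ishikawa, Ishikawa-S33Y and SNGM. JUNB lay between 49.5 and 72.6 CPM, with both Ishikawa libraries (72.6 and 71.5) above the rest. JUND, the JUN member known for its steady expression, split the lines in pairs, at 124 to 136 CPM in Ishikawa and Ishikawa-S33Y and 62.9 to 78.1 in SNGM and HEC265. No difference was called within either pair, and each of the 4 differences across them was called, at −0.83 to −1.04.

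EGR1 and ATF3 set Ishikawa-S33Y and Ishikawa apart in opposite directions. EGR1 was at 324 and 289 CPM in Ishikawa-S33Y and 104 and 130 in Ishikawa, and the difference was 1.39 ± 0.34 (SE, adjusted p = 0.00184). ATF3 was at 3.45 and 3.44 CPM in Ishikawa-S33Y against 24.2 and 22.9 in Ishikawa, a log2 difference of −2.47 ± 0.15 (SE, adjusted p = 3.78e-11). The groups do not overlap in either gene. In SNGM EGR1 was at 90.7 and 145 CPM and in HEC265 at 49.5 and 51.5, and ATF3 at 25.4 and 24.7 and at 7.88 and 8.92. EGR1 in SNGM and Ishikawa was not told apart (−0.02). With the length score SNGM was lower (−2.38, adjusted p = 3.75e-07), but the scores of these lines do not overlap. That fit therefore cannot tell score from line. Of the alternatives, only the length score as a covariate lost the EGR1 call between Ishikawa-S33Y and Ishikawa, with a difference of 0.19 (adjusted p = 0.476). On vehicle that score was −1.28 and −1.42 in Ishikawa-S33Y against −2.75 and −2.35 in Ishikawa, so this fit cannot tell score from line. The difference in ATF3 stayed called in all 16 alternatives. Among the 10 members, 5 were called between these lines on vehicle, 2 higher and 3 lower in Ishikawa-S33Y, beside 48.3% of all genes (20.0% higher and 28.2% lower). The other 3 were FOSL2 (0.58, adjusted p = 0.0276), FOS (−0.46, adjusted p = 0.0345) and JUNB (−0.45, adjusted p = 0.0140); in the fit to these lines alone FOS and FOSL2 were not called.

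Across the other pairs of lines, 6 members were called in SNGM against Ishikawa (background 66.8%), 9 in HEC265 against Ishikawa (63.3%), 8 in SNGM against Ishikawa-S33Y (60.8%), 7 in HEC265 against Ishikawa-S33Y (58.0%) and 9 in HEC265 against SNGM (54.9%). In the last of these, 8 of the 9 were lower in HEC265, beside 28.9% of all genes (26.0% higher), and FOSL1 was the member higher there.

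**Figure D2:**
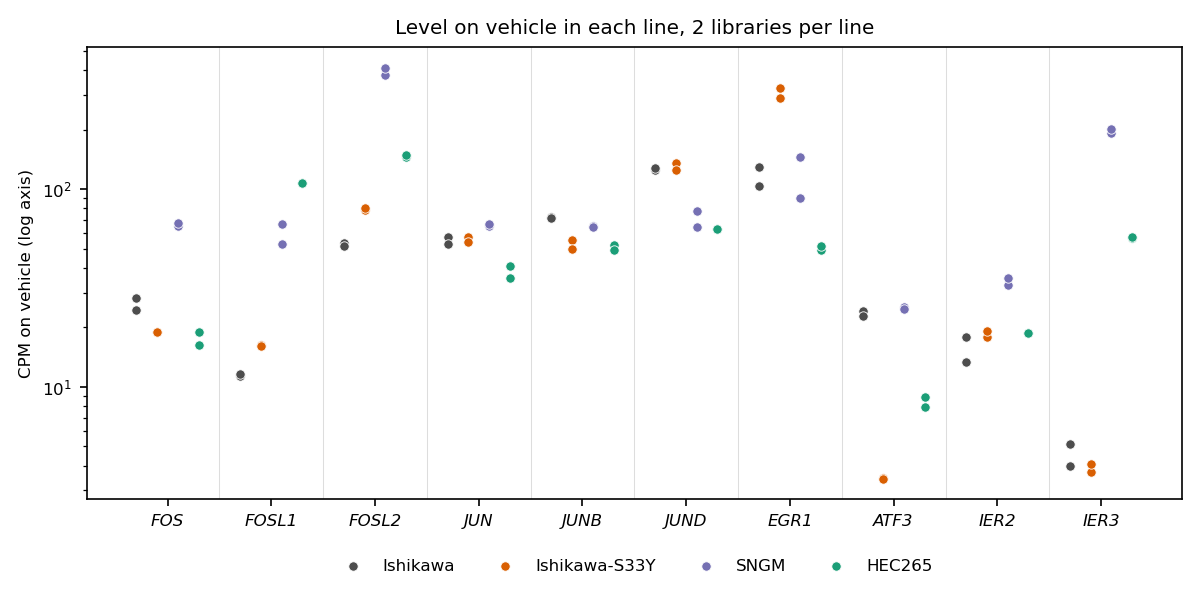
CPM on vehicle (vertical axis, log scale) of each gene in the 4 lines; points are the 2 libraries of each line. IER3 spans 3.70 to 202 CPM, and JUNB only 49.5 to 72.6.

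How many members were called on SM08502, and in which direction, varied among the lines. In HEC265, 6 of the 10 were called, 5 higher and 1 lower, beside 14.7% of all genes (9.27% higher and 5.39% lower). In Ishikawa-S33Y 6 were called, 2 higher and 4 lower, beside 29.1% of all genes (18.5% higher and 10.6% lower). In Ishikawa 2 were called, both lower, beside 15.2% (6.50% higher and 8.68% lower), and in SNGM 1, lower, beside 7.86% (3.80% higher and 4.06% lower). The median log2 difference of the 10 members was 0.50 in HEC265, where that of all genes was 0.07, and −0.22 in Ishikawa-S33Y, where that of all genes was 0.11. It was −0.09 in Ishikawa and −0.01 in SNGM, with all genes at 0.00 in both. The SE of a gene against vehicle is the same in all lines, though replicates lay furthest apart in Ishikawa and closest in HEC265. The counts depend on this shared spread. In fits to 1 line alone, 10 members were called in HEC265, 0 in Ishikawa and 0 in SNGM.

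FOS, the founding AP-1 gene, was called lower in 2 lines on SM08502. In HEC265 it went from 19.0 and 16.3 CPM on vehicle to 9.91 and 7.39, a log2 difference of −0.96 ± 0.17 (SE, adjusted p = 6.52e-04), and stayed called in all 16 alternatives. In Ishikawa-S33Y it went from 18.9 in both libraries to 13.1 and 10.7 CPM (−0.63 ± 0.17, adjusted p = 0.00884). Neither line's groups overlap. In SNGM FOS was at 41.1 and 49.4 CPM on SM08502 against 65.5 and 67.2 on vehicle, which did not overlap and did not pass the threshold (−0.55, adjusted p = 0.0562); it was called in 8 of 16 alternatives, with an adjusted p from 0.00179 to 0.39 over all of them. Ishikawa, at 26.5 and 18.4 against 24.6 and 28.1 CPM, overlapped (−0.24, 95% interval −0.60 to 0.12). Averaged over the lines the difference was −0.60 ± 0.09 (SE, adjusted p = 1.47e-05), called in all 27 alternatives, and no difference in the FOS response among the lines passed the F test.

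FOSL1, which encodes FRA-1, moved the other way. In Ishikawa-S33Y it rose from 16.3 and 16.1 CPM to 32.1 and 33.5 (0.97 ± 0.20, adjusted p = 0.00122), called in all 16 alternatives. In HEC265 it was at 149.5 and 163 CPM against 108 in both vehicle libraries, without overlap and without a call (0.53, adjusted p = 0.0922). It was called in the fit to HEC265 alone. In SNGM (−0.16, interval −0.59 to 0.27) and Ishikawa (0.25, interval −0.18 to 0.67) the groups overlapped. The mean over lines was 0.40 ± 0.10 (SE, adjusted p = 0.00409). FOSL2, which encodes FRA-2, was lower in both libraries of SM08502 than in both of vehicle in each line. How many of all genes separate in this way was not counted. FOSL2 was not called in Ishikawa-S33Y (−0.41, adjusted p = 0.158), HEC265 (−0.23, adjusted p = 0.589) or SNGM (−0.17, adjusted p = 0.766). In limma's fit to HEC265 alone it was called (adjusted p = 8.26e-04). Its fall was called in Ishikawa, from 53.3 and 51.8 to 39.7 and 22.0 CPM (−0.81 ± 0.21, adjusted p = 0.0136), and over the lines (−0.40 ± 0.11, adjusted p = 0.00474). The Ishikawa call ended without either vehicle library or without replicate 2 of SM08502, where the difference was −0.40. That library also had the lower length score of the pair (−3.02 against −2.25). With the score as a covariate, the FOSL2 fall in Ishikawa stayed called.

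JUN and JUNB each rose in 1 line and fell in another. JUN, the main JNK substrate of the family, rose in HEC265 from 35.5 and 41.0 CPM to 58.8 and 58.4 (0.61 ± 0.17, adjusted p = 0.0203) and fell in SNGM from 65.2 and 66.6 to 44.0 and 43.9 (−0.57 ± 0.17, adjusted p = 0.0435). In Ishikawa-S33Y JUN was at 57.4 and 52.6 CPM against 57.5 and 54.0, and in Ishikawa at 59.8 and 43.4 against 57.6 and 52.8; both overlapped (−0.02 and −0.11). Both JUN calls were lost when any 1 of the 4 libraries compared was left out, and over all alternatives the HEC265 difference ran from 0.49 to 0.73. JUNB rose in HEC265 from 52.1 and 49.5 CPM to 78.3 and 85.1 (0.67 ± 0.14, adjusted p = 0.00288), called in all 16 alternatives, and fell in Ishikawa-S33Y from 55.1 and 50.1 to 37.7 and 34.8 (−0.53 ± 0.14, adjusted p = 0.00921).

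JUND fell in both lines of Ishikawa origin. In Ishikawa-S33Y it went from 136 and 125 CPM to 84.6 and 79.0 (−0.67 ± 0.19, adjusted p = 0.0112), and in Ishikawa from 124.5 and 128 to 105 and 64.9 (−0.61 ± 0.19, adjusted p = 0.0344). In HEC265 it was at 78.1 and 81.1 CPM against 63.2 and 62.9 (0.33, adjusted p = 0.292), and it was called in the fit to HEC265 alone. In SNGM its groups overlapped. The Ishikawa call ended in 5 of 16 alternatives, and without replicate 2 of SM08502 its difference was −0.26. The Ishikawa-S33Y calls of FOS, JUNB, JUND and ATF3 each ended without replicate 2 of SM08502, which left FOSL1 as the 1 called member of that line. For the JUN genes the mean over lines was −0.02 for JUN, 0.08 for JUNB and −0.19 for JUND (interval −0.38 to 0.01) and none was called, though that of JUND was in 4 of 27 alternatives, among them median re-centring and voom, while the F test called a difference among lines for each: JUN at adjusted p = 0.0162, JUNB at 0.00435 and JUND at 0.0184.

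EGR1 fell in Ishikawa-S33Y, the line where its vehicle level was highest. It went from 324 and 289 CPM to 163 and 145 (−0.99 ± 0.34, adjusted p = 0.0320), without overlap. The SE of EGR1 was the largest of the members, and the call was lost when any 1 of the 4 libraries was left out and with no filter on low values. In HEC265 it was at 39.2 and 34.2 CPM against 49.5 and 51.5 (−0.45, adjusted p = 0.459), and it was called in the fit to HEC265 alone. In Ishikawa (117 and 54.3 against 104 and 130) and in SNGM (141 and 132 against 90.7 and 145) the groups overlapped. The mean over lines, −0.43 (adjusted p = 0.0474), was not called in 16 of 27 alternatives.

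ATF3, the stress-induced repressor, rose in the 2 lines where its vehicle level was lowest. In HEC265 it went from 7.88 and 8.92 CPM to 16.9 and 14.7 (0.84 ± 0.15, adjusted p = 5.27e-04), called in all 16 alternatives, and in Ishikawa-S33Y from 3.45 and 3.44 to 5.13 and 7.06 (0.66 ± 0.15, adjusted p = 0.00194). In SNGM it was at 33.1 CPM in both libraries against 25.4 and 24.7 (0.39, adjusted p = 0.120). In Ishikawa it was at 24.2 and 22.6 CPM against 24.2 and 22.9, a difference of −0.01 with an interval of −0.32 to 0.30. The mean over lines was 0.47 ± 0.07 (SE, adjusted p = 3.48e-05), and the lines differed by the F test (adjusted p = 0.0338).

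IER3 responded in HEC265. It rose there from 56.8 and 57.4 CPM to 106.5 and 111 (0.92 ± 0.12, adjusted p = 2.90e-05), called in all 16 alternatives. SNGM, where IER3 is highest on vehicle, was at 192 and 183 CPM against 193 and 202 (−0.08, interval −0.33 to 0.18), and the other lines gave −0.08 and −0.03. The F test called the difference among lines (adjusted p = 0.00109). IER2 rose in HEC265 from 18.8 CPM in both libraries to 27.1 and 25.7 (0.47 ± 0.15, adjusted p = 0.0378), a call lost in 7 of 16 alternatives, among them any left-out library. Its differences in the other lines were 0.15 to 0.30, and the mean over lines was 0.29 ± 0.07 (SE, adjusted p = 0.00440), called in all 27 alternatives. In the mean over lines 7 members were called, 4 higher (ATF3, FOSL1, IER2 and IER3) and 3 lower (FOS, FOSL2 and EGR1), beside 38.5% of all genes (22.6% higher and 15.8% lower). The mean of IER3 was 0.18 (adjusted p = 0.0208), a call lost in 5 of 27 alternatives, among them quantile normalization and voom. The F test called 5 members as differing among the lines in their SM08502 response, beside 12.4% of all genes.

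**Figure D3:**
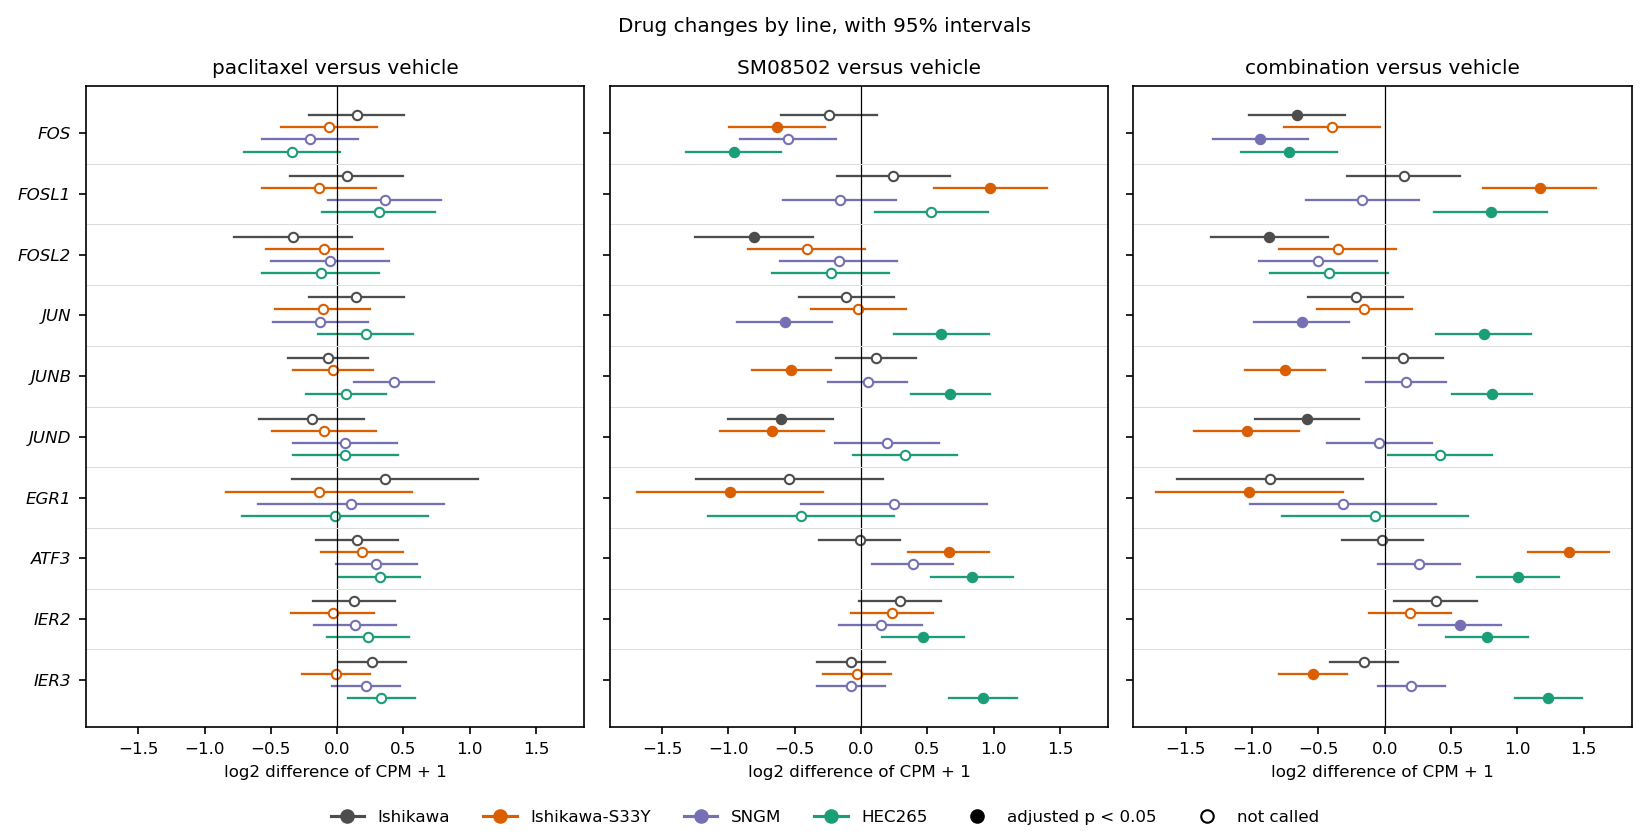
Log2 difference from vehicle on the log2(CPM + 1) scale (horizontal axis) with its 95% interval for each gene and line, in 1 panel each for paclitaxel, SM08502 and the combination; filled points are called. IER3 in HEC265 stands at 0.92 on SM08502 and 1.23 on the combination, and no point is filled in the paclitaxel panel.

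Paclitaxel alone changed none of the members detectably. By limma 0 of 10 were called in each line, and at an unadjusted p under 0.05 there were 2 in HEC265, 1 in SNGM, 1 in Ishikawa and 0 in Ishikawa-S33Y. The background was as low, with 0.00588%, 0.0176%, 0.0118% and 0% of all genes called in the same order, and 0% in the mean over lines. The differences ran from −0.34 (FOS in HEC265) to 0.43 (JUNB in SNGM). JUNB in SNGM was at 85.7 and 89.3 CPM against 64.9 and 64.7 (interval 0.13 to 0.73, adjusted p = 1). IER3 in HEC265 was at 73.4 and 71.0 CPM against 56.8 and 57.4 (0.33, interval 0.08 to 0.59, adjusted p = 1). ATF3 and IER3 were the 2 members at an unadjusted p under 0.05 in the mean over lines, at 0.24 and 0.20, with an adjusted p of 1 for each. In Ishikawa the paclitaxel libraries diverged, with EGR1 at 235 and 95.6 CPM and a length score of −1.55 and −3.11. With the score as a covariate no member was called on paclitaxel in Ishikawa. The part of the score in the divergence itself was not tested.

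The combination was called in 7 members in HEC265, 6 higher and 1 lower, beside 19.5% of all genes (12.4% higher and 7.16% lower), and in 6 in Ishikawa-S33Y, 2 higher and 4 lower, beside 42.0% (24.0% and 18.0%). In Ishikawa 3 were called, all lower, beside 22.8% (11.6% higher and 11.2% lower), and in SNGM 3, 1 higher and 2 lower, beside 18.4% (10.8% and 7.54%). The counts were not tested against each other between lines. The SM08502 and combination comparisons share their vehicle libraries. In Ishikawa, none of the calls held in a fit to that line alone, whose replicates were the most spread.

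In HEC265 on the combination, IER3 reached 134 and 137 CPM (1.23 ± 0.12, adjusted p = 6.29e-07), ATF3 15.8 and 20.1 (1.00 ± 0.15, adjusted p = 5.54e-05), JUNB 90.0 and 89.3 (0.81 ± 0.14, adjusted p = 4.07e-04) and FOSL1 177 and 201 (0.80 ± 0.20, adjusted p = 0.00814). IER2 reached 32.3 and 33.2 CPM (0.77, adjusted p = 8.60e-04) and JUN 63.8 and 65.4 (0.74, adjusted p = 0.00372). FOS fell to 11.1 and 9.55 CPM (−0.72, adjusted p = 0.00504). The calls of IER3, ATF3, JUNB and IER2 held in all 16 alternatives.

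In Ishikawa-S33Y on the combination, ATF3 rose from 3.45 and 3.44 CPM to 9.09 and 12.4 (1.39 ± 0.15, adjusted p = 3.66e-07) and FOSL1 from 16.3 and 16.1 to 33.4 and 42.5 (1.17 ± 0.20, adjusted p = 1.15e-04). JUND fell to 75.0 and 52.8 CPM (−1.04 ± 0.19, adjusted p = 1.70e-04), JUNB to 36.4 and 26.1 (−0.75, adjusted p = 2.93e-04) and EGR1 to 145 and 156 (−1.02, adjusted p = 0.0192). IER3 was at 2.36 and 2.34 CPM against 3.70 and 4.07 (−0.54, adjusted p = 0.00126), with 7 reads in the shallower library. The shallow replicate 2 held the outer value for FOSL1, JUNB, JUND and ATF3; without the 2 shallow libraries the 6 members stayed called, with FOSL1 at 1.00, JUNB at −0.52, JUND at −0.79 and ATF3 at 1.18. EGR1 was lost when any 1 of the libraries compared was left out. FOS, called on SM08502 alone, was at 15.7 and 12.7 CPM (−0.40, adjusted p = 0.0717).

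In SNGM the combination lowered FOS to 36.8 and 31.7 CPM from 65.5 and 67.2 (−0.94 ± 0.17, adjusted p = 7.81e-04, called in all 16 alternatives) and JUN to 50.4 and 35.5 from 65.2 and 66.6 (−0.63 ± 0.17, adjusted p = 0.0148). It raised IER2 to 51.0 CPM in both libraries from 32.7 and 35.7 (0.56 ± 0.15, adjusted p = 0.0114), a call lost without vehicle replicate 1 (adjusted p = 0.0877) or without the shallow combination replicate 2 (adjusted p = 0.0563). The lower JUN value came from the library of 1.61 M reads, and without it the difference was −0.38 and was not called. JUNB in SNGM was at 85.9 and 61.0 CPM; it was not called (0.16), and without the 2 shallow libraries it was (0.40, adjusted p = 0.0404). In Ishikawa FOS fell to 16.8 and 15.7 CPM from 24.6 and 28.1 (−0.66 ± 0.17, adjusted p = 0.00938), FOSL2 to 28.0 and 28.5 from 53.3 and 51.8 (−0.87 ± 0.21, adjusted p = 0.00576) and JUND to 87.5 and 80.3 from 124.5 and 128 (−0.59 ± 0.19, adjusted p = 0.0302). The JUND call was lost in 6 of 16 alternatives, that of FOS in 3 and that of FOSL2 in 1. ATF3 in Ishikawa stayed at 23.9 and 22.6 CPM (−0.02, interval −0.33 to 0.29). In the mean over lines 8 members were called, 4 in each direction, beside 49.1% of all genes (29.0% higher and 20.1% lower). Those higher were ATF3 (0.66), FOSL1 (0.48), IER2 (0.48) and IER3 (0.18), and those lower FOS (−0.68), EGR1 (−0.57), FOSL2 (−0.54) and JUND (−0.31). The IER3 call was lost in 5 of 27 alternatives, with a value of 0.006 (adjusted p = 0.962) under voom, and that of JUND without the 2 shallow libraries (−0.19, adjusted p = 0.0846).

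No member passed the threshold between the combination and SM08502 alone, and 2 came close in Ishikawa-S33Y. ATF3 was at 9.09 and 12.4 CPM on the combination against 5.13 and 7.06 on SM08502 (0.72, interval 0.42 to 1.03, adjusted p = 0.0552), and IER3 at 2.36 and 2.34 against 3.79 and 3.75 (−0.51, interval −0.76 to −0.26, adjusted p = 0.0782). Between the combination and SM08502 alone, 0 members were called by limma in any line or in the mean over lines. The background was 0.00588% in HEC265, 0.253% in SNGM, 0.129% in Ishikawa-S33Y, 0% in Ishikawa and 0.0470% in the mean. At an unadjusted p under 0.05 there were 1 in HEC265, 3 in SNGM, 2 in Ishikawa-S33Y, 1 in Ishikawa and 2 in the mean. The combined response departed from the sum of both single responses in 0 members in each line by limma, with 1 member in HEC265, 0 in SNGM, 2 in Ishikawa-S33Y and 1 in Ishikawa at an unadjusted p under 0.05 (background of adjusted calls 0%, 0.00588%, 0% and 0.00588%). Against paclitaxel alone, the combination was called in 5 members in HEC265 (background 14.9%), 1 in SNGM (15.9%), 6 in Ishikawa-S33Y (39.4%) and 3 in Ishikawa (14.4%).

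The lines differed in their response to the combination in 6 members by the F test, beside 27.1% of all genes: IER3 (adjusted p = 3.53e-06), JUNB (1.48e-04), ATF3 (1.57e-04), JUN (0.00202), JUND (0.00208) and FOSL1 (0.00559). Between Ishikawa-S33Y and its parent the combination effect differed in 3 members, beside 10.5% of all genes. It was larger in Ishikawa-S33Y by 1.40 for ATF3 (adjusted p = 3.11e-04) and by 1.03 for FOSL1 (adjusted p = 0.0272), and lower for JUNB (−0.89, adjusted p = 0.00841). For SM08502 alone no member differed between these lines (3 at an unadjusted p under 0.05), beside 2.43% of all genes.

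The genes around these members in the pathway were read from lists of neighbours. Of 25 other immediate early genes, 7 were called higher and 2 lower on SM08502 in HEC265, 2 and 2 in SNGM, 8 and 1 in Ishikawa-S33Y and 1 and 2 in Ishikawa. Of all genes, 9.27% were called higher and 5.39% lower in HEC265, and 3.80% and 4.06% in SNGM. In Ishikawa-S33Y the shares were 18.5% and 10.6%, and in Ishikawa 6.50% and 8.68%. In the mean over lines 6 of the 25 rose and 1 fell, with a median of 0.08 where that of all genes was 0.05, and with 22.6% of all genes higher and 15.8% lower the rises were near the background. CTGF (CCN2), a matricellular protein gene driven by YAP and SRF, had the largest rise over the lines (0.67 ± 0.08, adjusted p = 9.15e-07). It went from 56.0 and 51.8 CPM to 149 and 176 in Ishikawa-S33Y (1.57) and from 19.2 and 16.1 to 43.9 and 44.7 in SNGM (1.28), but fell in HEC265 from 135 and 137 to 92.7 and 95.8 (−0.53, adjusted p = 0.0251). MYC was the 1 that fell over the lines (−0.18, adjusted p = 0.0260), with a called fall in Ishikawa, from 54.3 and 59.1 to 37.5 and 27.9 CPM (−0.79, adjusted p = 2.88e-04).

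Of 19 genes of the MAPK and SRF pathway, 2 rose and 3 fell on SM08502 over the lines (median −0.04), no larger a share than the 22.6% higher and 15.8% lower of all genes. MAPK9, which encodes JNK2, fell in each of the 4 lines: −1.23 in HEC265 (adjusted p = 1.29e-05), −0.63 in SNGM (0.0109), −0.60 in Ishikawa-S33Y (0.00469) and −0.50 in Ishikawa (0.0262). In HEC265 it went from 179 and 189 CPM to 78.6 and 77.7, without overlap. MAP2K4, a kinase above JNK, had the largest rise of that list (0.32 ± 0.05, adjusted p = 1.27e-05). Among 10 ERK feedback genes 2 rose and 1 fell over the lines (median −0.02), against the same background. DUSP6, a phosphatase of ERK, rose by 0.57 ± 0.06 (adjusted p = 1.69e-07), from 79.6 and 76.0 to 150 and 162 CPM in Ishikawa-S33Y, and DUSP4 fell (−0.26, adjusted p = 0.0159).

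Of 12 genes known as AP-1 targets, 4 rose and 0 fell in HEC265 on SM08502 (median 0.18), 0 rose and 2 fell in Ishikawa (median −0.32), 1 rose and 1 fell in Ishikawa-S33Y, and 0 were called in SNGM. Of all genes, 9.27% were called higher in HEC265, 8.68% lower in Ishikawa, and 18.5% higher and 10.6% lower in Ishikawa-S33Y. Over the lines TIMP1, an inhibitor of matrix metalloproteinases, rose (0.29 ± 0.05, adjusted p = 1.75e-04), and PLAU, the urokinase gene, fell (−0.49 ± 0.07, adjusted p = 1.47e-05). PLAU went from 44.7 and 44.0 CPM to 20.1 and 21.5 in Ishikawa-S33Y (−1.06), while it was under 2 CPM in HEC265. Of 12 further bZIP partners 10 passed the filter, of which 0 rose and 2 fell over the lines (median 0.04; 15.8% of all genes fell), with MAFG at −0.21 (adjusted p = 0.0449). Of 5 other EGR and NAB genes EGR2 was the 1 called over the lines, beside 38.5% of all genes, at −0.23 (adjusted p = 0.0330, list median −0.23). On paclitaxel no gene of these lists was called.

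**Figure D4:**
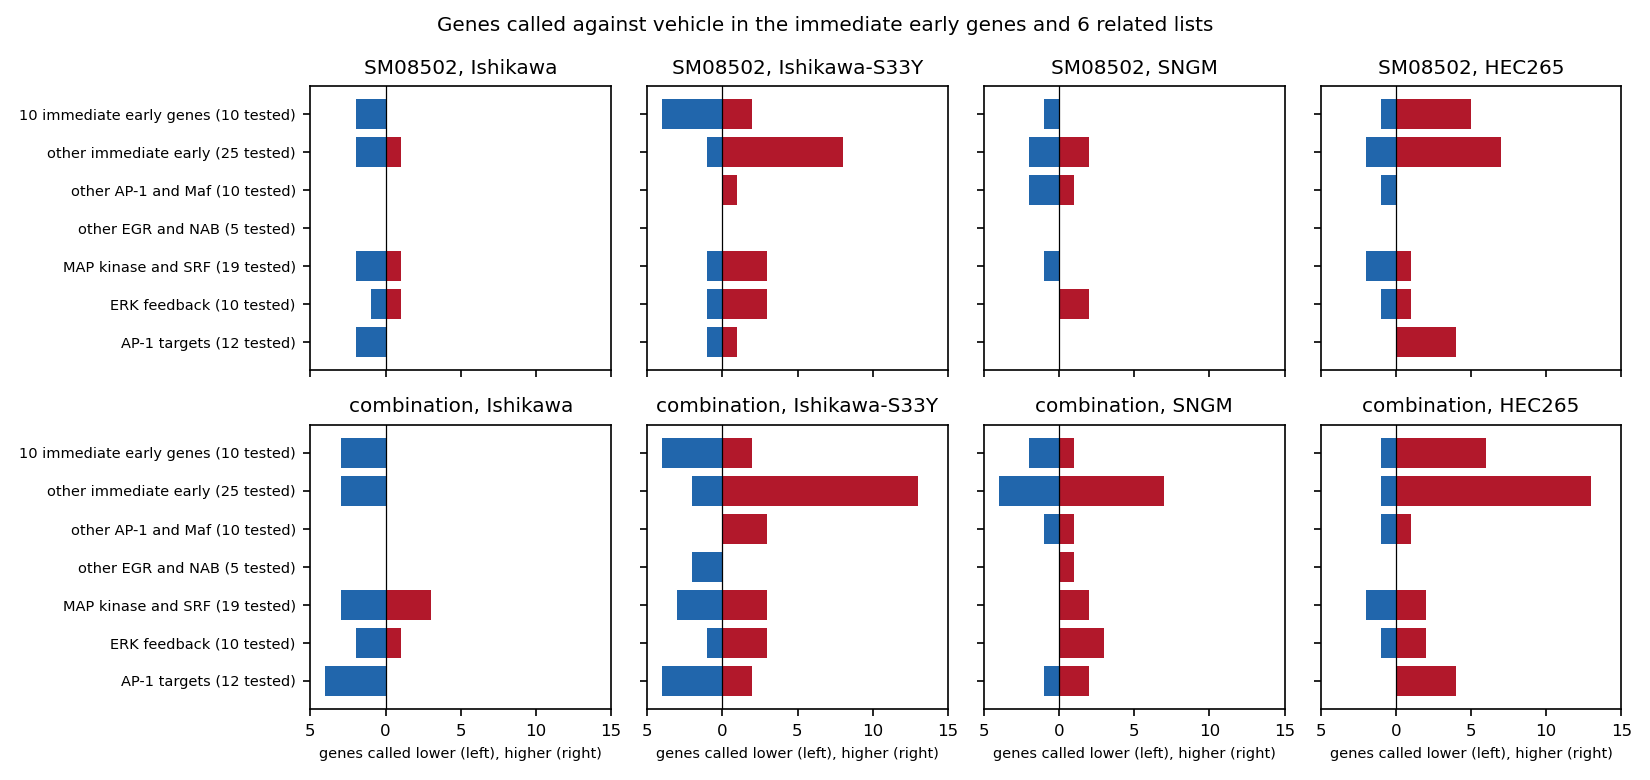
Number of genes called lower (left of 0) and higher (right of 0) on SM08502 and on the combination, for the 10 members and 6 lists of related genes in each line. Of the 25 other immediate early genes, 13 were called higher on the combination in HEC265, where 12.4% of all genes were, and 13 in Ishikawa-S33Y, where 24.0% were.

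The genes whose level was most like that of each member were found over the 16 group means of log2(CPM + 1). Over 10423 candidates, Pearson's r was highest for IER3 with APOL2 (1.00) and C1QTNF6 (0.99), for FOSL2 with PAQR5 and GNAQ (0.99 each), for FOSL1 with NINJ1 and MERTK (0.98 each), for IER2 with SMG1 and LRRFIP2 (0.97 each), and for FOS with DMXL1 (0.97) and SLC39A10 (0.96). EGR1 was most like JAG2 (0.96) and TMEM94 (0.95), ATF3 like ZNF175 (0.96) and NCOA4 (0.95), JUND like NGEF (0.95) and ARRB2 (0.90) and JUNB like GSTK1 (0.94) and GTF2H5 (0.90). The nearest to JUN were AKR1B15 (0.68) and ORAI1 (0.64). These are descriptions over groups that share lines, depth and input.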

How the data were processed

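RNA-seq was measured in 32 libraries (4 lines, 4 treatments, 2 replicates), grouped by the labels. Per the labels' protocols, RNA was depleted of ribosomal RNA with FastSelect, made into libraries with KAPA mRNA HyperPrep and sequenced on a NovaSeq6000. The submitters' processing notes name bcl2fastq, STAR, kallisto and GRCh38; their versions and roles, the annotation and the strand setting are not given in the sources used here. The authors deposited log10 values: 10 to the power of the value, minus 1, summed to 1000000 in each library, so the unit is log10(CPM + 1). Low values came out as whole reads in 100% of cases (tolerance 0.1), which gave each library's depth. Values were changed to log2(CPM + 1), and genes above 1 CPM in at least 2 libraries were fitted with limma 3.58.1 in R 4.3.3, with 16 group means and an intensity trend, over all 32 libraries (16 residual degrees of freedom). Tests are two-sided, with Benjamini-Hochberg adjustment in each comparison. The script was tested on simulated data. Alternatives were other filters, pseudocount, scalings, voom weights, a replicate block, the length score as covariate, single-line fits and leaving out libraries. Splicing tables were not analysed here. Replicate numbers did not pair the samples in a uniform way. Promoter windows are RefSeq's, without transcribed bases.

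Named genes are all members, the called gene with the largest rise and fall of each related list over the lines on SM08502, and the 2 most correlated genes with mean log2(CPM + 1) of at least 3. Members and lists were chosen with earlier results of these data known. Overlaps with other genes come from RefSeq (GRCh38.p14).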

Additional observations from a re-analysis of the deposited data

Results flagged for a closer look

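The responses below were singled out because the same treatment had a different effect in different lines, by a limma test of that difference. For SM08502 the F test across the 4 lines gave adjusted p-values of 0.00109 for IER3, 0.00435 for JUNB, 0.0162 for JUN, 0.0184 for JUND and 0.0338 for ATF3. IER3 rose in HEC265 (0.92) and stood between −0.08 and −0.03 in the other lines. JUNB rose in HEC265 (0.67) and fell in Ishikawa-S33Y (−0.53), and JUN rose in HEC265 (0.61) and fell in SNGM (−0.57). JUND fell in Ishikawa (−0.61) and Ishikawa-S33Y (−0.67) and was at 0.20 in SNGM and 0.33 in HEC265. ATF3 rose in HEC265 (0.84) and Ishikawa-S33Y (0.66) and was at −0.01 in Ishikawa.

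For the combination the same test gave 3.53e-06 for IER3, 1.48e-04 for JUNB, 1.57e-04 for ATF3, 0.00202 for JUN, 0.00208 for JUND and 0.00559 for FOSL1. Both sets of tests share the vehicle libraries. Between Ishikawa-S33Y and Ishikawa, the combination effect differed in ATF3 (1.40, adjusted p = 3.11e-04), JUNB (−0.89, adjusted p = 0.00841) and FOSL1 (1.03, adjusted p = 0.0272). Each line had its own doses, so line and dose cannot be told apart.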

How the results depend on the processing

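Of 93 values of single members called in limma's fit, many held in every alternative. Within lines on SM08502, these were IER3, ATF3, JUNB and FOS in HEC265 and FOSL1 in Ishikawa-S33Y. On the combination they were ATF3, FOSL1, JUNB, JUND and IER3 in Ishikawa-S33Y, FOS in SNGM, and IER3, ATF3, JUNB and IER2 in HEC265. Each of these held in all 16 alternatives. Differences between lines on vehicle, such as IER3 in SNGM against Ishikawa, and means over lines, such as FOS on SM08502, also held. Another 90 values were called neither in the main fit nor in any alternative, and 37 of these changed sign in at least 1 alternative. The number of members called on SM08502 in SNGM was 1; it was 0 with no filter, with no intensity trend and in the fit to SNGM alone, 2 with a stricter filter, median re-centring, quantile normalization, the replicate block or the crossed replicate block, and 3 with voom, without the 2 shallow libraries or with the length score; the added calls were FOS and, where 3, ATF3. In Ishikawa the count on SM08502 was 2, and 1 with no filter and 0 in the line alone. In HEC265 it was 6, and 10 in the line alone. On the combination in Ishikawa it was 3, and 5 with median re-centring, quantile normalization or the length score and 0 in the line alone. Ishikawa-S33Y against Ishikawa on vehicle had 5, and 3 with no filter or in those lines alone. The F test on SM08502 called 5, and 8 with the length score.

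Leaving out 1 library gave counts on SM08502 of 0 to 3 in Ishikawa, 1 to 5 in Ishikawa-S33Y (1 without SM08502 replicate 2, 3 without vehicle replicate 1), 0 to 0 in SNGM and 4 to 4 in HEC265. On paclitaxel in Ishikawa it gave 0 to 1 (1 without paclitaxel replicate 1), and on the combination 1 to 3 in Ishikawa (1 without vehicle replicate 2 or combination replicate 2), 1 to 3 in SNGM (1 without vehicle replicate 1 or combination replicate 2) and 4 to 7 in HEC265 (4 without vehicle replicate 1). On vehicle between the Ishikawa lines it gave 2 to 3. For the F test on SM08502 it gave 3 to 7 (3 without Ishikawa-S33Y SM08502 replicate 2, HEC265 vehicle replicate 1 or HEC265 SM08502 replicate 1).

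Signs reversed with the length score in Ishikawa-S33Y against Ishikawa for FOSL1 (−0.12), FOSL2 (−0.12), JUN (−0.45) and IER2 (−0.016), in JUN for SNGM against Ishikawa (−0.66) and against Ishikawa-S33Y (−0.21), and in IER2 for HEC265 against Ishikawa (−0.16). On vehicle the scores do not overlap between the lines compared, so score and line cannot be told apart in these fits. EGR1 in SNGM against Ishikawa turned to 0.12 with median re-centring and 0.10 with voom, and ran from −0.36 to 0.31 with 1 library left out. With 1 library left out, JUN in Ishikawa-S33Y against Ishikawa ran from −0.046 to 0.077, EGR1 on SM08502 in Ishikawa from −1.086 to 0.007, FOSL2 on paclitaxel in Ishikawa from −0.81 to 0.14 and JUNB on the combination in SNGM from −0.086 to 0.401. Where no cause is named, the cause was not tested. Median re-centring moved the median of all genes by −0.11 on the combination in HEC265 and by 0.22 in HEC265 against Ishikawa, and quantile normalization by 0.27 in the latter. Numbers did not pair the samples in a uniform way: same-numbered deviations correlated at −0.57 to 0.86 in Ishikawa and −0.65 to 0.84 in SNGM. Libraries of these lines thus share a component of spread that the main fit does not model, and its source was not tested. The replicate block moved no other count by over 1.5 times. The crossed block, which swapped the replicate numbers of vehicle in Ishikawa and of SM08502 and the combination in SNGM, was chosen after seeing the data. The deposited unit is log10(CPM + 1), and the planned count-model test was not run. Of the fits, only voom used the recovered reads. At 1.61 M and 2.99 M reads (M, 1000000), the 2 shallow libraries limit low values such as IER3 in Ishikawa-S33Y.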
